A study of Mus musculus with 23 samples.

Results

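Cell cycle genes of S phase and of G2 and mitosis were described in RNA sequencing libraries from the growing end of the mouse lower incisor. The 50 genes were a fixed list of symbols: 24 DNA replication genes and 26 mitotic genes. The list was chosen with earlier results of these data known. All 50 were found among the 54347 genes of the deposited table, and all 50 passed the filter on low counts. Cells came from the labial cervical loop, the epithelial stem cell region of the incisor, dissected from mice at postnatal day 2. Every mouse carried Sox2-GFP, a reporter in which the endogenous Sox2 promoter drives GFP, and FACS split the cells into GFP-positive and GFP-negative pools, labelled Sox2-positive and Sox2-negative. Batch A, with 6 Sox2-negative and 6 Sox2-positive libraries, and batch B, with 4 and 7, were prepared from different mice on separate days. They are called A-negative, A-positive, B-negative and B-positive below. The labels do not say whether the libraries of a group came from separate animals or pools, so the p-values measure the spread between libraries, which may be technical.

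A cell that divides licenses its replication origins in G1, copies its DNA in S phase, and then builds a spindle and separates its chromosomes. E2F transcription factors are known to drive many replication genes at the G1/S boundary, while the mitotic genes peak later through the DREAM and MuvB complexes, which bind a promoter element called CHR. In the incisor, which grows throughout life, slowly cycling Sox2-expressing epithelial cells are known to feed rapidly dividing transit-amplifying progeny, and the mesenchyme beside them also divides.

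Library totals ran from 2305778 to 9541443 counts with a median of 4831091, and 49 of the 50 genes had at least 10 counts in every library. Sox2 was at 0.247 CPM (the count relative to the TMM-scaled library total) or less in the A-negative libraries, at 2.6 to 13.1 CPM in A-positive, at 1.13 or less in B-negative, and at 13.1 to 21.5 in B-positive. Summed CPM of 8 epithelial markers had a median of 201 in A-negative, 3890 in A-positive, 352 in B-negative and 5896 in B-positive libraries. The Sox2-negative pools were higher in 8 mesenchymal markers, with medians of 12013 and 12150 CPM in batches A and B against 1606 and 823 in the Sox2-positive pools. They also held 6 leukocyte markers (2343 and 424 CPM against 7.29 and 7.45), 5 endothelial markers (589 and 164 against 1.21 and 1.88) and 6 erythroid markers (1061 and 53914 against 3.27 and 4.46). In B-negative libraries the erythroid sum was the largest of the marker sums. The Sox2-negative pools were higher in 5 ameloblast markers too (848 and 641 CPM against 329 and 9.42), while 5 glial and neural crest markers were higher in the Sox2-positive pools (837 and 53.9 CPM against 4.52 and 9.48). CPM sums of different lists do not give shares of cells. The pools thus differed in markers of several cell types, whose part in the results was not tested. In bulk RNA, fewer dividing cells and less RNA per dividing cell cannot be told apart.

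In batch B, libraries 1 and 2 of each pool stood apart from the others of their group. Between B-positive libraries 1 and 2 the chi-square per degree of freedom over genes was 5.46, against 12.4 to 20.7 between either of them and libraries 3 to 7, which differed by 5.59 to 8.68 among themselves. B-negative libraries 1 and 2 differed by 15.3, against 29.4 to 37.6 from libraries 3 and 4, which differed by 24.04. The epithelial marker sums were 4243 and 4062 CPM in B-positive libraries 1 and 2 and 5534 to 6097 in the others, and the mesenchymal sums were 10758 and 10389 CPM in B-negative libraries 1 and 2 and 13543 and 13848 in libraries 3 and 4. The labels give no reason, and the tests treat the libraries as independent. Results of batch B are therefore also given with these 4 libraries left out, a comparison added after the data were seen.

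Of the 50 genes, 42 have a promoter in the RefSeq table for GRCm38.p6, 20 replication genes and 22 mitotic genes. Exo1, Kif20a, Ccne2, Tpx2, Gins2, Ccna2, Aurkb and Mcm4 are not in it. The window from 250 bases before to 50 bases after each start was searched on both strands for CHR letters (TTTGAA or TTCGAA), for the CCAAT box (CCAAT) and for E2F letters (TTTGGCGC, TTTCCCGC, TTCCCGCC, TTTCGCGC, TTTGCGCC or TTGGCGGG). Words may overlap, as TTGGCGGG does with a reversed CCAAT. CHR letters were in 17 of 22 mitotic genes (77.3%) and in 4 of 20 replication genes (20%), against 21.7% of all 27025 genes in the table and 19.2% of all 32851 promoters. E2F letters were in 11 of 20 replication genes (55%) and in 1 of 22 mitotic genes, Cdk1, against 5.32% of all genes and 4.68% of promoters. CCAAT was in 19 of 22 mitotic genes (86.4%) and 12 of 20 replication genes (60%), against 41.1% of all genes and 37.4% of promoters. A match is a string of letters and not evidence of a bound factor.

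Promoter stretches of 6 genes are shown because genes with the same letters differed in opposite directions between the cell pools: Cdc20 and Cdk1 were higher and Top2a lower in Sox2-positive cells, all with CHR letters, and Mcm6 was higher and Mcm3 lower, both with E2F letters. Uhrf1 had the smallest p for a difference between batches. The table holds 2 promoters for Uhrf1, and the one shown has E2F letters, while the other stretch (chr17:56304163-56304342) has CCAAT and no E2F letters. Each stretch runs from 150 bases before to 30 bases after the start, with capitals marking matched letters on either strand.
Cdc20 (chr4:118437314-118437493, minus strand): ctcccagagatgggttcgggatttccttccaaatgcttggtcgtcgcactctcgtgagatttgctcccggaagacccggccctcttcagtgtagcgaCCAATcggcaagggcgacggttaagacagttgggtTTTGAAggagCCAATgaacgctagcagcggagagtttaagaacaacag
Cdk1 (chr10:69352883-69353062, minus strand): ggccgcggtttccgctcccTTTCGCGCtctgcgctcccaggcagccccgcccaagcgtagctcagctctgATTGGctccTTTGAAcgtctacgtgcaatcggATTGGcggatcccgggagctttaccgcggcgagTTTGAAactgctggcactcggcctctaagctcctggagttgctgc
Top2a (chr11:99024160-99024339, minus strand): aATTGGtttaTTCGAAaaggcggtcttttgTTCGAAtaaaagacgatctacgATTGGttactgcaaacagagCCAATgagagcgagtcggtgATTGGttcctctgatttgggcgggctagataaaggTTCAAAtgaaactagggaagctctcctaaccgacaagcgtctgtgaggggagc
Mcm6 (chr1:128359676-128359855, minus strand): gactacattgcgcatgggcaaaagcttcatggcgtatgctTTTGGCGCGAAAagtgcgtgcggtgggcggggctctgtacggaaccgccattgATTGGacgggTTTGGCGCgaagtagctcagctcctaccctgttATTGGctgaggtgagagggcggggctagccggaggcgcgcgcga
Mcm3 (chr1:20820283-20820462, minus strand): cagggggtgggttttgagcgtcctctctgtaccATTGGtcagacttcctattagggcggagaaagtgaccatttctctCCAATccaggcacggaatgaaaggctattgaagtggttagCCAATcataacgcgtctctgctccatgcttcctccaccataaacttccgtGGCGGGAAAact
Uhrf1 (chr17:56303187-56303366, plus strand): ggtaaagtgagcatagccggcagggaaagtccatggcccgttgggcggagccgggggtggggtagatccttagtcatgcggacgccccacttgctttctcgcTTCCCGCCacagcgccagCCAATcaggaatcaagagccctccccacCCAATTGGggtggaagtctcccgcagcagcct

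Over both batches, most of the cell cycle genes that changed were higher in Sox2-positive cells. Of the 24 replication genes, 17 were higher, 2 were lower and 5 did not pass the test (edgeR, adjusted p under 0.05, batch as a covariate). Of the 26 mitotic genes, 15 were higher, 2 were lower and 9 did not pass. The background was high, since 57.5% of 17190 tested genes passed, 24.9% as higher and 32.5% as lower. The median log2 fold change, Sox2-positive over Sox2-negative, was 0.68 for replication genes and 0.39 for mitotic genes, beside -0.12 for all genes. The 4 genes lower in Sox2-positive cells were Mcm3, Pola1, Top2a and Mki67.

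**Figure D1:**
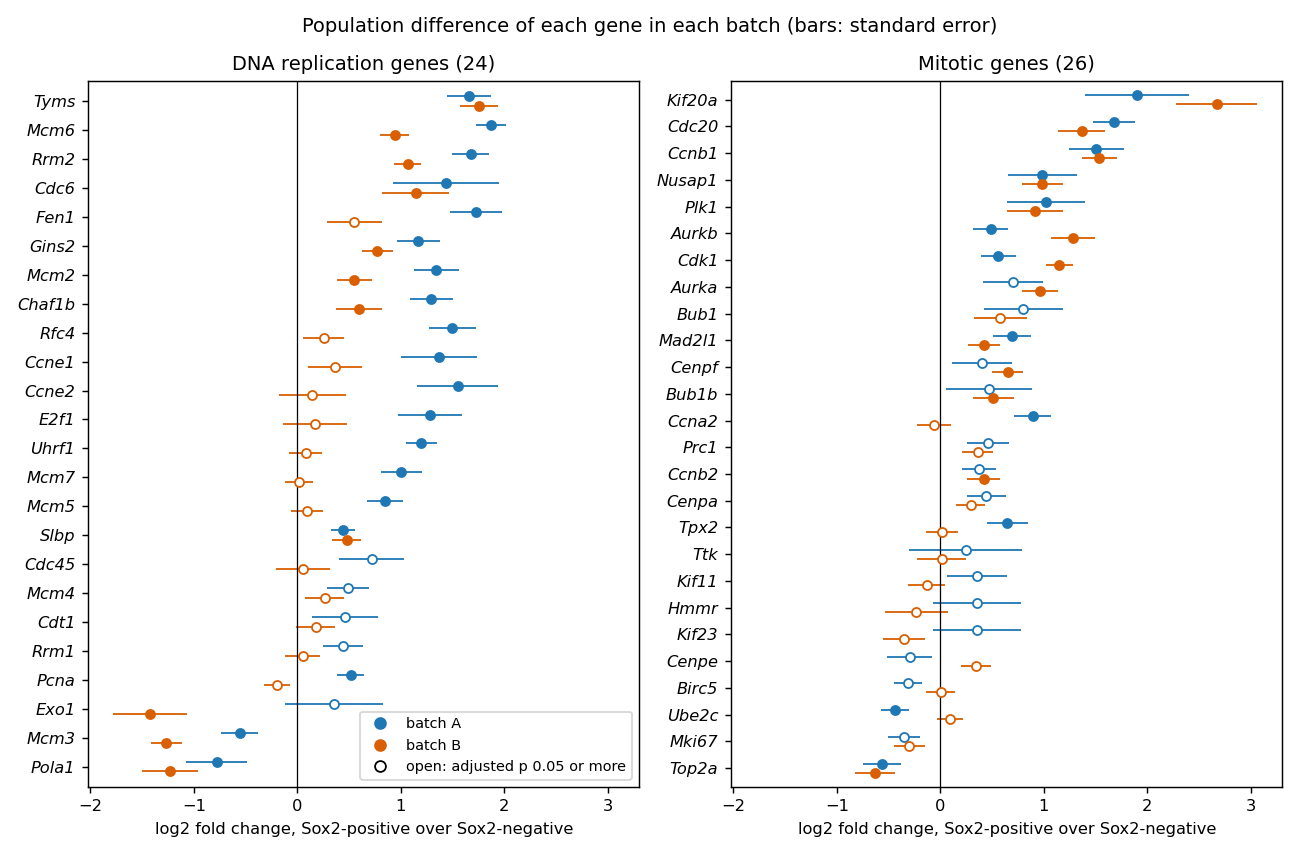
Log2 fold change of each of the 50 genes, Sox2-positive over Sox2-negative cells, in batch A and in batch B, with bars for 1 SE. Replication and mitotic genes are in separate panels, and open points did not pass the test. Values run from -0.78 to 1.90 in batch A and from -1.42 to 2.67 in batch B. Genes are ordered by the fold change over both batches, which runs from -1.03 for Pola1 to 2.21 for Kif20a. In that fit, genes of the same role lie on both sides of 0 among the MCM helicase and fork enzyme genes. They also do so among the anaphase-promoting complex, kinetochore, midzone, and mitotic kinase and passenger complex genes. There the genes under 0, which are Ube2c, Cenpe, Kif23 and Birc5, did not pass the test.

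In the value sentences that follow, 3 CPM values for a group of 6 or 7 are the lowest, the median and the highest library, and the 4 B-negative libraries are given in the order 1 to 4. CPM values are TMM-scaled and not divided by gene length, so they are compared between groups and not between genes.

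Of the 3 genes of nucleotide supply, 2 were higher. Tyms, thymidylate synthase, which makes dTMP, was at 53.4, 69.2 and 135 CPM in A-negative and at 220, 265 and 339 in A-positive libraries. It was at 42.4, 36.8, 55.4 and 66.8 in B-negative and at 135, 162 and 232 in B-positive libraries. The groups did not overlap in either batch, and the log2 fold change was 1.67 ± 0.15 (SE, adjusted p = 2.94e-10). Rrm2, the regulatory subunit of ribonucleotide reductase, was at 60.0, 75.6 and 121 CPM in A-negative and 209, 277 and 343 in A-positive libraries, and at 65.9, 67.4, 56.7 and 76.8 in B-negative and 127, 132 and 160 in B-positive libraries. Its groups were also apart in both batches, with a log2 fold change of 1.35 ± 0.13 (adjusted p = 2.04e-09). Rrm1, the large subunit of the same enzyme, had a log2 fold change of 0.22 ± 0.14 that did not pass the test (adjusted p = 0.187). The subunits of ribonucleotide reductase thus had unlike values, though the difference between them was not tested.

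The MCM2-7 complex is the hexameric replicative helicase, and 5 of its 6 genes were higher in Sox2-positive cells while Mcm3 was lower. Mcm6 was at 60.3, 70.8 and 92.5 CPM in A-negative and 214, 280 and 359 in A-positive libraries, and at 87.1, 86.7, 84.6 and 60.8 in B-negative and 137, 154 and 169 in B-positive libraries. No Sox2-negative library reached a Sox2-positive one, and the log2 fold change was 1.39 ± 0.14 (adjusted p = 4.29e-09). Mcm2 was at 35.6, 46.6 and 91.1 CPM in A-negative and 117, 137 and 172 in A-positive libraries, and at 57.5, 49.3, 49.6 and 64.9 in B-negative and 56.1, 83.7 and 98 in B-positive libraries. Its groups were apart in batch A and overlapped in batch B, with a log2 fold change of 0.93 ± 0.17 (adjusted p = 2.71e-05). Mcm7 (0.50 ± 0.16, adjusted p = 0.00985), Mcm5 (0.45 ± 0.14, adjusted p = 0.00927) and Mcm4 (0.34 ± 0.15, adjusted p = 0.0465) were higher by less. The call of Mcm4 was lost without A-negative library 4 (adjusted p = 0.0653), A-negative library 5 (0.0859) or A-positive library 4 (0.0599).

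Mcm3 went the other way. It was at 123, 204 and 254 CPM in A-negative and 99.3, 149 and 172 in A-positive libraries, and at 232, 224, 153 and 210 in B-negative and 66.9, 87.1 and 118 in B-positive libraries. The batch A groups overlapped and the batch B groups did not. The log2 fold change was -0.93 ± 0.14 over both batches (adjusted p = 4.36e-06), -0.56 ± 0.18 in batch A (adjusted p = 0.0178) and -1.26 ± 0.15 in batch B (adjusted p = 3.64e-06). Within a library, the ratio of Mcm6 to Mcm3 CPM had a median of 0.363 in A-negative, 2.06 in A-positive, 0.381 in B-negative and 1.90 in B-positive libraries. The highest Sox2-negative ratio was 0.643 and the lowest Sox2-positive ratio 1.19. This pair was chosen after its values were seen, so the ratio is a description.

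**Figure D2:**
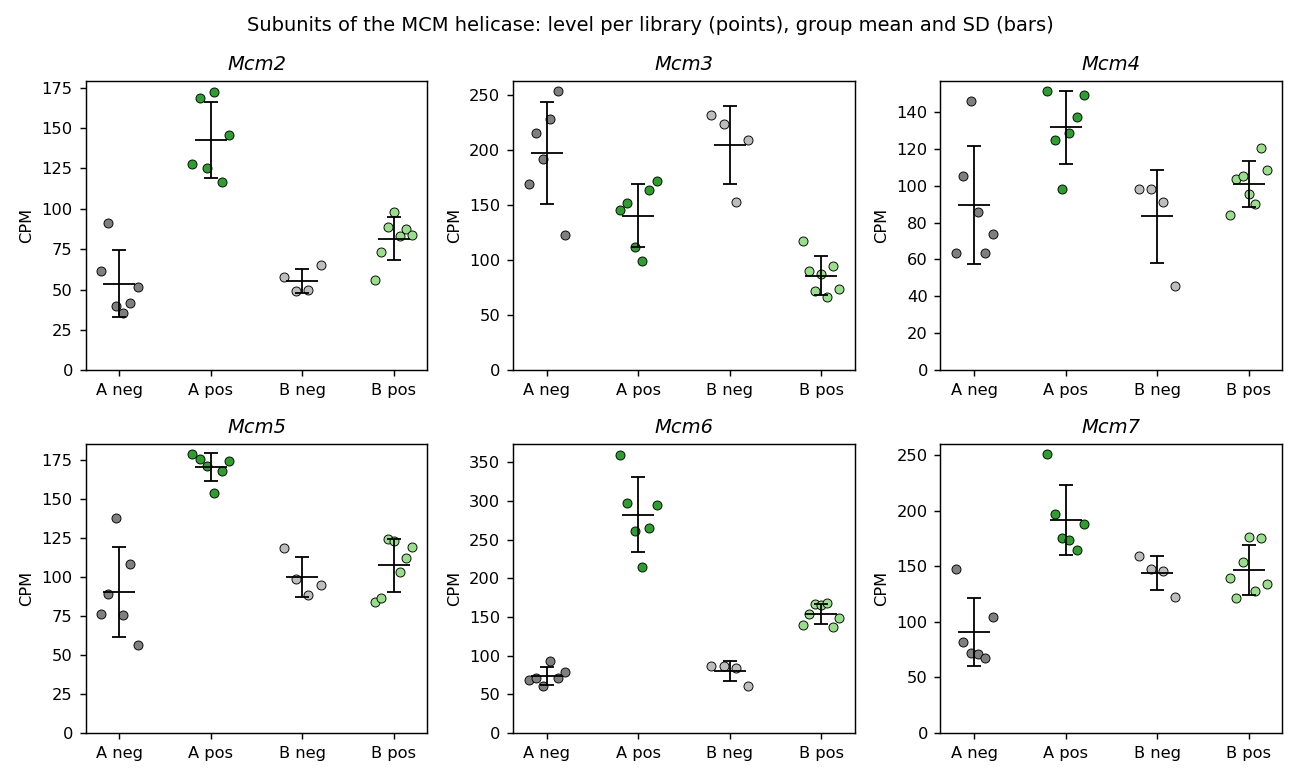
CPM of the 6 MCM helicase genes in each library (points), with the group mean and SD (bars), for Sox2-negative (neg) and Sox2-positive (pos) cells of batches A and B. Mcm6 is at 214 to 359 in A-positive against 60.3 to 92.5 in A-negative libraries, and Mcm3 is the subunit whose Sox2-positive means lie under the Sox2-negative means in both batches.

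Among the genes of origin licensing and firing, Cdc6, which loads MCM onto origins, had a log2 fold change of 1.27 ± 0.32 (adjusted p = 0.00145), and Gins2, part of the active helicase, 0.95 ± 0.14 (adjusted p = 1.45e-06). Cdt1, the other loader (0.29 ± 0.19, adjusted p = 0.197), and Cdc45, which binds MCM and GINS (0.37 ± 0.22, adjusted p = 0.142), did not pass. All 3 G1/S regulators were higher over both batches. They were Ccne1 (0.86 ± 0.25, adjusted p = 0.00439) and Ccne2 (0.84 ± 0.30, adjusted p = 0.0184), the cyclins E that activate Cdk2, and E2f1 (0.72 ± 0.24, adjusted p = 0.0128). Their median log2 fold change was 1.37 in batch A, where all 3 passed, and 0.17 in batch B, where Ccne1 (adjusted p = 0.248), Ccne2 (0.727) and E2f1 (0.658) did not. The direct test of this difference between batches (edgeR interaction) did not pass for Ccne1 (adjusted p = 0.169), Ccne2 (0.088) or E2f1 (0.1045). The genes of chromatin and histone supply were also higher: Chaf1b, a histone chaperone subunit, by 0.93 ± 0.17 (adjusted p = 3.84e-05), Uhrf1, which keeps DNA methylation through replication, by 0.63 ± 0.16 (adjusted p = 0.00147), and Slbp, which binds histone mRNA, by 0.42 ± 0.092 (adjusted p = 0.000338).

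The 5 fork enzymes were split. Fen1, the flap nuclease of the lagging strand (1.13 ± 0.22, adjusted p = 0.000108), and Rfc4, a clamp loader subunit (0.86 ± 0.20, adjusted p = 0.000474), were higher. Pola1, the catalytic subunit of the primase polymerase, was at 22.0, 47.9 and 73.1 CPM in A-negative and 17.5, 30.1 and 39.3 in A-positive libraries, and at 79.7, 104, 41.8 and 59.6 in B-negative and 17, 27.7 and 46.8 in B-positive libraries. The groups overlapped in both batches, and the log2 fold change was -1.03 ± 0.21 (adjusted p = 0.000124). Exo1, an exonuclease of mismatch repair, was at 8.72, 11.6 and 40.3 CPM in A-negative and 14.3, 20.7 and 53.0 in A-positive libraries, and at 43.2, 56.1, 32.8 and 41.8 in B-negative and 6.02, 15.4 and 34.4 in B-positive libraries. Its batches had log2 fold changes of 0.35 ± 0.47 (adjusted p = 0.576) in A and -1.42 ± 0.36 (adjusted p = 0.00304) in B, and it did not pass over both (-0.53 ± 0.36, adjusted p = 0.21).

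Pcna, the sliding clamp and a common marker of proliferation, was at 141, 185 and 218 CPM in A-negative and 233, 260 and 328 in A-positive libraries. In batch B it was at 209, 221, 158 and 168 in Sox2-negative and 147, 154 and 199 in Sox2-positive libraries. The batch A groups were apart and the batch B groups overlapped. With the batches combined, Pcna had a log2 fold change of 0.14 ± 0.12 (adjusted p = 0.326), and without batch B libraries 1 and 2 of both pools it was higher (0.35, adjusted p = 0.0165).

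The mitotic genes with the largest differences act from mitotic entry to cytokinesis. Kif20a, a kinesin of the central spindle, was at 3.07, 14.7 and 48.3 CPM in A-negative and 49.6, 80.4 and 120 in A-positive libraries, and at 2.95, 13.7, 22.3 and 9.99 in B-negative and 56.7, 71.3 and 106 in B-positive libraries. The groups did not overlap in either batch, although in batch A they nearly met, and the log2 fold change was 2.21 ± 0.36 (adjusted p = 8.37e-06). Cdc20, the activator of the anaphase-promoting complex, was at 32.4, 57.4 and 93.4 CPM in A-negative and 178, 192 and 243 in A-positive libraries, and at 51.6, 50.6, 44.6 and 94.1 in B-negative and 108, 172 and 194 in B-positive libraries. Its groups were apart in both batches (1.49 ± 0.16, adjusted p = 1.23e-08). Ccnb1, cyclin B1, which activates Cdk1 for mitotic entry, was at 27.8, 43.5 and 83.7 CPM in A-negative and 130, 158 and 183 in A-positive libraries, and at 41.1, 27.6, 57.6 and 39.5 in B-negative and 112, 120 and 131 in B-positive libraries. It too had no overlap in either batch (1.49 ± 0.17, adjusted p = 2.64e-08).

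All 4 genes of the mitotic cyclins and Cdk1 were higher. Beside Ccnb1, Cdk1, the mitotic kinase itself, had a log2 fold change of 0.79 ± 0.12 (adjusted p = 4.01e-06), Ccnb2 0.36 ± 0.11 (adjusted p = 0.00903) and Ccna2 0.40 ± 0.16 (adjusted p = 0.0323). The call of Ccna2 was lost without A-negative library 2 (adjusted p = 0.0613) or library 3 (0.0653). The kinases Plk1 (0.94 ± 0.25, adjusted p = 0.00205), Aurka (0.78 ± 0.17, adjusted p = 0.000416) and Aurkb (0.80 ± 0.15, adjusted p = 5.95e-05) were higher, whereas Birc5, the survivin subunit that works with Aurkb in the chromosomal passenger complex, had -0.21 ± 0.10 (adjusted p = 0.0811, or 0.0485 without batch B libraries 1 and 2). Of the spindle checkpoint, Bub1 (0.66 ± 0.24, adjusted p = 0.0202) and Mad2l1 (0.53 ± 0.12, adjusted p = 0.000514) were higher, and Bub1b (0.45 ± 0.25, adjusted p = 0.118) and Ttk (0.10 ± 0.31, adjusted p = 0.79) did not pass.

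Of the 4 spindle assembly genes, 1 was higher and 3 did not pass. Nusap1, a microtubule-binding protein, was higher (0.94 ± 0.20, adjusted p = 0.000302), while Tpx2, which activates Aurora A, had 0.31 ± 0.14 (adjusted p = 0.057), Kif11, the kinesin that pushes spindle poles apart, 0.09 ± 0.18 (adjusted p = 0.673), and Hmmr 0.04 ± 0.27 (adjusted p = 0.904). Tpx2 did pass in 16 of the 23 fits that left out 1 library, and without batch B libraries 1 and 2 of both pools (0.46, adjusted p = 0.0235). At centromeres, Cenpf (0.48 ± 0.17, adjusted p = 0.0199) and Cenpa, the centromeric histone (0.34 ± 0.13, adjusted p = 0.024), were higher, and Cenpe, a kinetochore motor, had -0.04 ± 0.14 (adjusted p = 0.8). At the midzone, Prc1, a microtubule bundler, was higher (0.38 ± 0.13, adjusted p = 0.0127), and Kif23, the kinesin of centralspindlin, had -0.02 ± 0.26 (adjusted p = 0.965).

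Mki67 and Top2a, common markers of cycling cells, were lower in Sox2-positive cells. Mki67, which coats mitotic chromosomes, was at 93.8, 102 and 142 CPM in A-negative and 71.6, 94.3 and 104 in A-positive libraries, and at 127, 124, 114 and 128 in B-negative and 71.2, 99.0 and 132 in B-positive libraries. The groups overlapped in both batches, and the log2 fold change of -0.37 ± 0.11 passed over both (adjusted p = 0.00571). Mki67 passed in neither batch alone, except in batch B without libraries 1 and 2 of both pools (-0.44, adjusted p = 0.0455). With total-count scaling the call over both batches was lost (-0.25, adjusted p = 0.0587), as it was with no filter on low counts (-0.28, adjusted p = 0.0946). Top2a, the topoisomerase that untangles sister chromatids, was at 140, 208 and 340 CPM in A-negative and 129, 154 and 182 in A-positive libraries, and at 193, 182, 118 and 261 in B-negative and 94.7, 126 and 163 in B-positive libraries. Its groups overlapped as well, and it was lower over both batches (-0.63 ± 0.14, adjusted p = 0.000448). Without B-negative library 4 its call in batch B was lost (-0.43, adjusted p = 0.0651), and in batch A it was lost without A-negative library 1 or A-positive library 1, 4 or 6 (adjusted p up to 0.0582).

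Ube2c, the ubiquitin-conjugating enzyme of the anaphase-promoting complex, was at 116, 147 and 190 CPM in A-negative and 108, 111 and 141 in A-positive libraries, and at 105, 79.1, 115 and 97.3 in B-negative and 95.6, 101 and 123 in B-positive libraries. Its groups overlapped and it did not pass over both batches (-0.23 ± 0.10, adjusted p = 0.0565), while Cdc20, which acts on the same complex, did. Ube2c passed as lower in batch A and not in batch B. With no filter on low counts the batch A call was lost (-0.38, adjusted p = 0.0871). Without batch B libraries 1 and 2 of both pools Ube2c was lower (-0.29, adjusted p = 0.0289). The ratio of Ccnb1 to Top2a CPM, also chosen after its values were seen, ran from 0.121 to 0.416 in A-negative and 0.734 to 1.38 in A-positive libraries, and from 0.151 to 0.488 in B-negative and 0.795 to 1.28 in B-positive libraries.

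**Figure D3:**
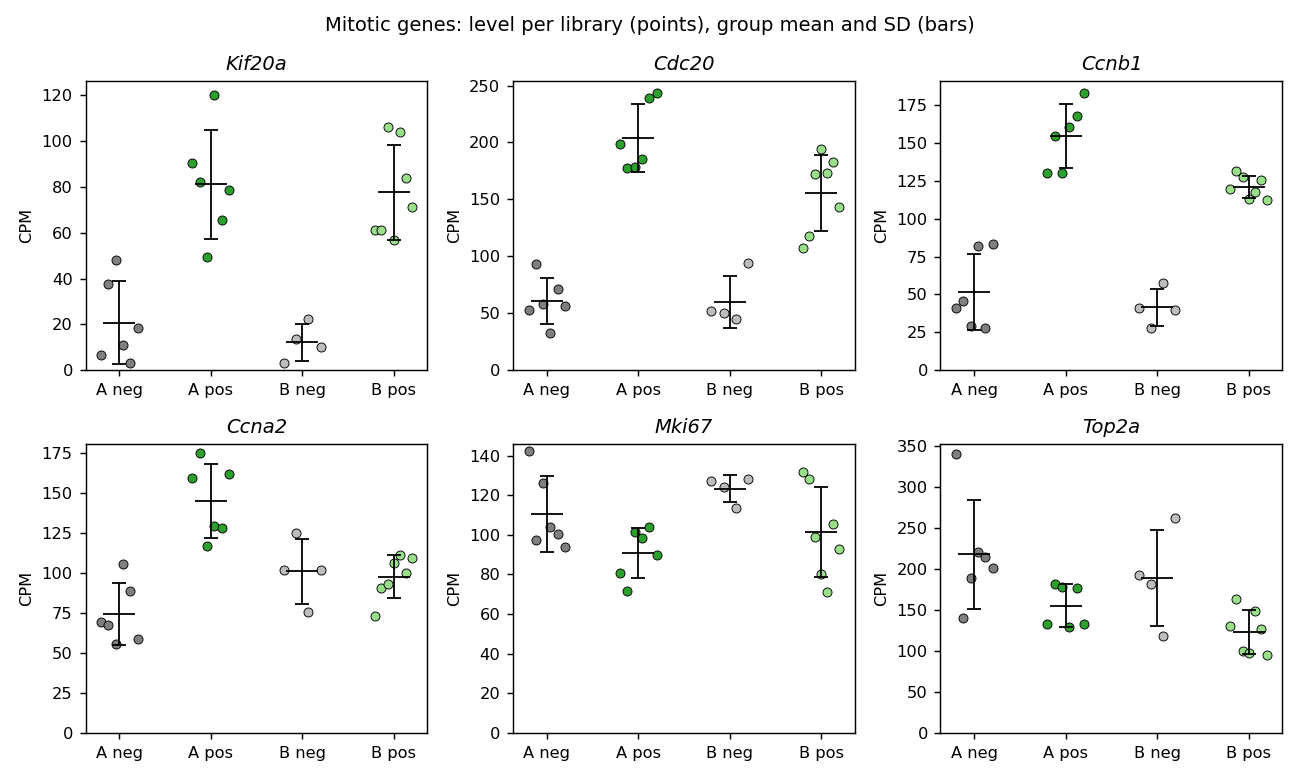
CPM of 6 mitotic genes in each library (points), with the group mean and SD (bars), for Sox2-negative (neg) and Sox2-positive (pos) cells of batches A and B. Kif20a, Cdc20 and Ccnb1 do not overlap between the pools of a batch, whereas Mki67 and Top2a do. Ccna2 overlaps in batch B and not in batch A.

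Within batch A, the comparison over its 12 libraries found 17 replication genes higher, 2 lower and 5 not passing, and 10 mitotic genes higher, 2 lower and 14 not passing. The background was 43.4% of 14296 genes, 19.3% as higher and 24.2% as lower. Within batch B, with 11 libraries, 8 replication genes were higher, 3 lower and 13 did not pass, and 12 mitotic genes were higher, 1 lower and 13 did not pass, beside 54.7% of 15765 genes, 27.1% as higher and 27.6% as lower. In either direction, 79.2% of replication and 46.2% of mitotic genes passed in batch A. In batch B these shares were 45.8% and 50%, both under that of all genes. As higher in batch B, 33.3% of replication and 46.2% of mitotic genes passed. The median log2 fold change of replication genes was 1.19 in batch A and 0.21 in batch B, and that of mitotic genes 0.47 and 0.39, where all genes had -0.04 and 0.01. Mcm2, Mcm6, Rrm2, Tyms, Gins2, Cdc6, Chaf1b and Slbp passed as higher in both batches, and Mcm3 and Pola1 as lower in both. The share of all genes that passed alike in both batches is not given here, so these names are a description. Mcm5, Mcm7, Pcna, Ccne1, Ccne2, E2f1, Uhrf1, Fen1 and Rfc4 passed as higher in batch A and not in batch B, which alone shows no difference between batches.

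Ccnb1, Cdk1, Aurkb, Cdc20, Kif20a, Plk1, Nusap1 and Mad2l1 were the mitotic genes that passed as higher in both batches, with Top2a lower in both. Ccnb2, Aurka, Bub1b and Cenpf passed as higher in batch B only. Ccna2 and Tpx2 passed as higher, and Ube2c as lower, in batch A only. Of the calls in batch A, that of Aurkb was lost without A-negative library 1 or 5 or A-positive library 1, 2 or 5 (adjusted p up to 0.0692), and that of Nusap1 without A-negative library 1 or 4 or A-positive library 2 (up to 0.0707). Plk1 lost its call there without A-negative library 2 or 3 or A-positive library 1, 3, 4 or 5 (up to 0.0776). Cdc6 did so without A-negative library 1 or 2 or A-positive library 1, 2 or 3 (up to 0.0766), and Pola1 without A-negative library 1, 2, 4 or 6 or A-positive library 1, 2, 4, 5 or 6 (up to 0.0957). In batch B, Mad2l1 lost its call without B-negative library 1 or B-positive library 2 (up to 0.0864), and Chaf1b without B-negative library 1 or 3 or B-positive library 2, 3, 5 or 6 (up to 0.116). RLE size factors also ended the batch B calls of Mad2l1 (adjusted p = 0.0561) and Chaf1b (0.0529), and of Ccnb2 (0.0668) and Bub1b (0.0693). Without the filter Mad2l1 had an adjusted p of 0.0665 and Bub1b one of 0.0507. DESeq2 ended the calls of Ccnb2 (0.0556) and Bub1b (0.0571). Ccnb2 lost its call without B-negative library 3 or 4 or B-positive library 1, 2, 5 or 7 (up to 0.0895). Bub1b did so without B-negative library 2, 3 or 4 or B-positive library 1, 4, 6 or 7 (up to 0.114). Without B-positive libraries 5 and 7, Ccnb2 (0.129), Mad2l1 (0.0804), Chaf1b (0.0723) and Bub1b (0.0686) did not pass. Without libraries 1 and 2 of both pools, 6 replication genes were higher and 2 lower in batch B, and 10 mitotic genes higher and 2 lower. Chaf1b (adjusted p = 0.14), Slbp (0.161), Ccnb2 (0.107), Mad2l1 (0.31) and Exo1 (0.0905) then did not pass.

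The summed levels show the same shape. Replication genes summed to 1563, 1644 and 1756 CPM in A-negative and 2984, 3221 and 3478 in A-positive libraries. In batch B the sums were 1604 to 1884 in Sox2-negative and 1936, 2090 and 2181 in Sox2-positive libraries. Mitotic genes summed to 1618, 1735 and 1807 CPM in A-negative, 2235, 2445 and 2529 in A-positive, 1454 to 1655 in B-negative, and 1845, 2051 and 2166 in B-positive libraries. In both lists the Sox2-positive sums lay above the Sox2-negative sums of their batch. The ratio of the mitotic to the replication sum had a median of 1.05 in A-negative and 0.753 in A-positive libraries, and of 0.861 in B-negative and 0.997 in B-positive libraries. The ratio was lower in every A-positive than in every A-negative library, and the batch B groups overlapped. These sums are descriptions with no test.

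**Figure D4:**
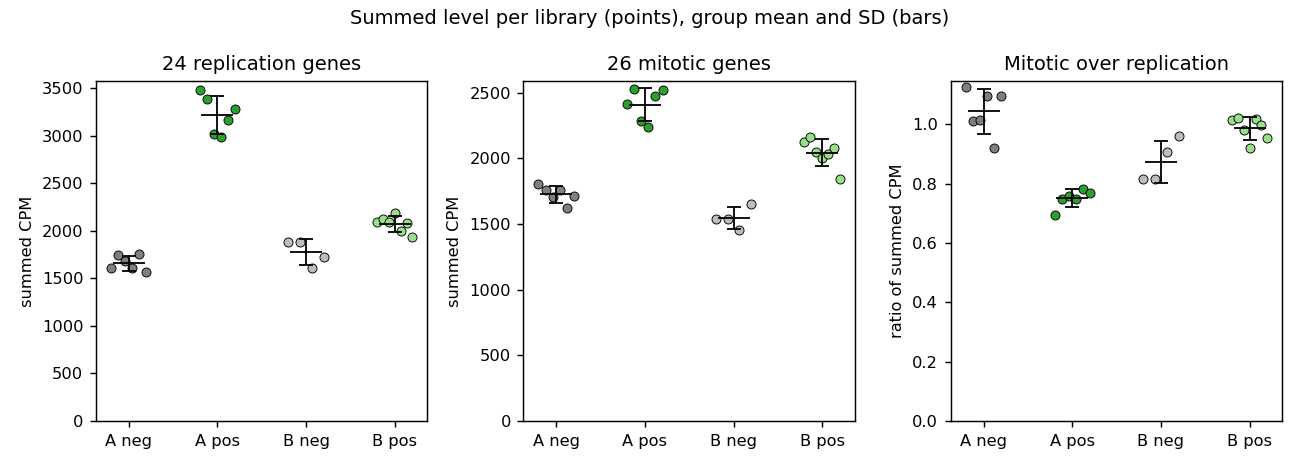
Summed CPM of the 24 replication genes and the 26 mitotic genes in each library, and the ratio of the sums (points), with the group mean and SD (bars). A-positive libraries, at 2984 to 3478 CPM, stand above every other library for replication genes, and their ratio of mitotic to replication CPM is 0.694 to 0.782.

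Whether the pools differed by unlike amounts in the batches was tested by the interaction, the batch B difference minus the batch A difference. For replication genes 7 of 24 interactions passed as negative (edgeR) and 0 as positive, beside 4.22% and 2.82% of all 17190 genes and 7.04% in either direction. At an unadjusted p under 0.05, 15 were negative and 0 positive, and DESeq2 also called 0 positive. The estimate was negative for 23 of the 24, with a median of -0.77 beside 0.02 for all genes. For mitotic genes 1 of 26, Ccna2, passed as negative and 0 as positive, with 2 negative and 4 positive at an unadjusted p under 0.05, and DESeq2 called 1 positive, Aurkb. Their median was -0.10.

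Uhrf1 was at 68.3, 94.7 and 118 CPM in A-negative and 170, 224 and 250 in A-positive libraries, and at 132, 101, 104 and 92.9 in B-negative and 83.2, 119 and 145 in B-positive libraries. The groups were apart in batch A and overlapped in batch B, and the interaction was -1.18 ± 0.22 on the log2 scale (adjusted p = 0.000912). Mcm6, whose values stand above, had an interaction of -0.99 ± 0.20 (adjusted p = 0.00163), although it was higher in Sox2-positive cells of both batches (1.87 ± 0.15 in A, 0.94 ± 0.14 in B). Rfc4 was at 18.8, 24.2 and 30.5 CPM in A-negative and 41.9, 74.5 and 87.2 in A-positive libraries, and at 31.8, 44.5, 54.4 and 33.3 in B-negative and 38.4, 46.4 and 62.7 in B-positive libraries. It was apart in batch A and overlapped in batch B (interaction -1.31 ± 0.29, adjusted p = 0.00545). Mcm7 was at 67.1, 77.3 and 147 CPM in A-negative and 164, 182 and 251 in A-positive libraries, and at 159, 147, 146 and 123 in B-negative and 121, 139 and 176 in B-positive libraries. It had the same pattern of overlap (interaction -1.06 ± 0.25, adjusted p = 0.00755).

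Pcna had an interaction of -0.78 ± 0.19 (adjusted p = 0.0111). Ccna2, cyclin A2, which acts in S phase as well as in G2, was at 55.5, 68.5 and 106 CPM in A-negative and 116, 144 and 175 in A-positive libraries, and at 102, 125, 75.2 and 102 in B-negative and 72.9, 100 and 111 in B-positive libraries. Its groups were apart in batch A and overlapped in batch B (interaction -1.02 ± 0.25, adjusted p = 0.0107). Mcm5 (-0.82 ± 0.24, adjusted p = 0.0369) and Fen1 (-1.24 ± 0.37, adjusted p = 0.0393) also passed. Mcm5 lost the call without A-negative library 1 or 4, A-positive library 1, 2, 5 or 6, B-negative library 1 or 2, or B-positive library 1, 2 or 6 (adjusted p up to 0.104). Fen1 lost its call without A-negative library 2, 3, 4 or 6, A-positive library 1, 2, 5 or 6, B-negative library 2 or 4, or B-positive library 1, 2 or 6 (adjusted p up to 0.133). Without libraries 1 and 2 of both batch B pools, 2 of the 8 interactions passed, those of Uhrf1 (-0.92, adjusted p = 0.036) and Rfc4 (-1.53, adjusted p = 0.0183). Mcm6 (-0.81, adjusted p = 0.0696), Mcm7 (-0.87, 0.147), Pcna (-0.64, 0.117), Mcm5 (-0.55, 0.372), Fen1 (-1.22, 0.126) and Ccna2 (-0.71, 0.213) were negative and did not pass.

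The batches were then set against each other within each pool. These comparisons use the same libraries as the interaction. In Sox2-positive cells 13 of 24 replication genes were lower in batch B and 0 higher, with a median log2 fold change of -0.68, beside 5.54% of genes lower, 4.85% higher and 10.4% in either direction. At an unadjusted p under 0.05, 17 were lower and 0 higher, and DESeq2 called 14 lower and 0 higher. Of the 26 mitotic genes, Mad2l1 (-0.85 ± 0.15, adjusted p = 0.000323) and Ccna2 (-0.58 ± 0.16, adjusted p = 0.0181) were lower and Cenpe (0.61 ± 0.16, adjusted p = 0.0139) was higher in batch B. Ccna2 lost that call without A-positive library 2 (adjusted p = 0.0506). The replication genes with the largest differences were Chaf1b (-1.10 ± 0.20, adjusted p = 0.000313), E2f1 (-1.05 ± 0.28, adjusted p = 0.0139), Ccne1 (-0.998 ± 0.29, adjusted p = 0.0266) and Rrm2 (-0.99 ± 0.14, adjusted p = 2.12e-05). E2f1 lost its call without A-positive library 5 (adjusted p = 0.0508), and Ccne1 without A-positive library 2 or 6 or B-positive library 1, 2 or 4 (up to 0.0803). Without libraries 1 and 2 of both batch B pools, 10 replication genes were lower, and Ccne1 (adjusted p = 0.154), E2f1 (0.109), Fen1 (0.0765), Ccna2 (0.0969) and Cenpe (0.13) did not pass.

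In Sox2-negative cells 2 replication genes were higher in batch B and 2 lower, with a median of 0.11, beside 5.85% of genes higher, 5.35% lower and 11.2% in either direction. Mcm7 (0.65 ± 0.19, adjusted p = 0.0215) and Rfc4 (0.76 ± 0.22, adjusted p = 0.0263) were higher, and Slbp (-0.57 ± 0.14, adjusted p = 0.00722) and Tyms (-0.70 ± 0.22, adjusted p = 0.0388) lower. The calls of Mcm7 and Rfc4 were lost with total-count scaling (adjusted p = 0.0928 and 0.0751), which moved the median of all genes in this comparison from 0.00 to -0.15. Mcm7 also lost it without B-negative library 1 or 2 (up to 0.0676), Rfc4 without B-negative library 2 or 3 (up to 0.10), and Tyms without A-negative library 3 or 5, B-negative library 1, 2 or 3, or B-positive library 4 (up to 0.151). Of the mitotic genes Aurkb (-1.003 ± 0.20, adjusted p = 0.00147), Cdk1 (-0.73 ± 0.16, adjusted p = 0.00409), Ube2c (-0.62 ± 0.14, adjusted p = 0.00382) and Birc5 (-0.57 ± 0.15, adjusted p = 0.0122) were lower in batch B and 0 higher, where 2 were higher at an unadjusted p under 0.05 and DESeq2 called 0. Birc5 lost the call without B-negative library 2 (adjusted p = 0.0699). Without libraries 1 and 2 of both batch B pools, Aurkb and Cdk1 passed, and Mcm7 (adjusted p = 0.25), Rfc4 (0.103), Slbp (0.101), Tyms (0.424), Ube2c (0.101) and Birc5 (0.175) did not.

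**Figure D5:**
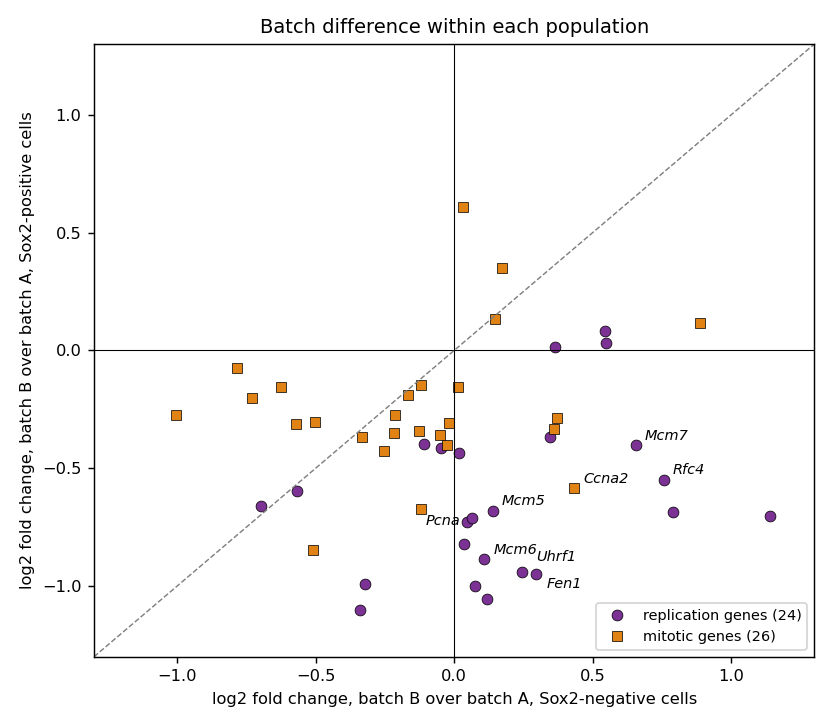
Log2 fold change of batch B over batch A for each of the 50 genes, in Sox2-negative cells (x axis) and Sox2-positive cells (y axis), with the 8 genes whose interaction passed named and the dashed line marking equal differences. Of the 24 replication genes 23 lie below the line.

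Other cell markers moved between the batches of the Sox2-positive pool. The 5 glial and neural crest markers summed to 763 to 984 CPM in A-positive and 37.7 to 73.3 in B-positive libraries, none of them at 0 throughout either group. The 8 mesenchymal markers summed to 1400 to 1951 CPM in A-positive and 696 to 854 in B-positive libraries, with Twist1 at 0 in every library of both. Of these markers 3 passed as lower in batch B (edgeR), 0 as higher, and 5 did not pass. Their median log2 fold change was -0.29, so the fall of the sum was not shared by the whole list. The 5 ameloblast markers summed to 292 to 359 CPM in A-positive libraries, with Klk4 at 0, and to 6.73 to 10.6 in B-positive libraries, with Enam at 0. In the Sox2-negative pool, erythroid markers summed to 957 to 1139 CPM in batch A and 52530 to 59142 in batch B. Whether cells with these markers had a part in the batch differences was not tested.

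Cell cycle genes outside the 50 were taken from longer lists of S phase and G2/M genes, to be read beside the 24.9% of all genes higher, the 32.5% lower and the median of -0.12. Of 30 other S phase genes, 11 were higher in Sox2-positive cells over both batches, 5 lower and 14 not passing, with a median log2 fold change of 0.16. That is 53.3% called, near the 57.5% of all genes. Rpa1, which coats single-stranded DNA, was among the highest (1.22 ± 0.18, adjusted p = 2.03e-06). The lowest that passed were Blm, a DNA helicase (-1.01 ± 0.27, adjusted p = 0.00236), and Atad2, a chromatin ATPase (-0.92 ± 0.16, adjusted p = 1.58e-05). Of 36 other G2/M genes, 17 were higher, 8 lower and 11 did not pass, with a median of 0.40 and 69.4% called. Ect2 is the exchange factor that starts cytokinesis. It was at 4.09, 8.93 and 29.0 CPM in A-negative and 41.2, 46.2 and 65.5 in A-positive libraries, so the batch A groups were apart. Over both batches its log2 fold change was 1.82 ± 0.25 (adjusted p = 9.09e-07). Cdca3 was next (1.02 ± 0.18, adjusted p = 2.32e-05).

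The lowest G2/M gene was Incenp, the scaffold of the chromosomal passenger complex. It was at 69.3, 91.7 and 128 CPM in A-negative and 19.2, 28.3 and 39.7 in A-positive libraries, and at 119, 90.2, 80.1 and 92.3 in B-negative and 9.5, 22.0 and 32.7 in B-positive libraries. No libraries overlapped between the pools, and the log2 fold change was -2.02 ± 0.19 (adjusted p = 1.22e-09). Its partners in that complex, Aurkb and Birc5, had 0.80 and -0.21, and Cdca8, borealin, 0.86 ± 0.14 (adjusted p = 9.43e-06). Cdca8 was named after its values were seen. Ncapd2, a condensin subunit, was also lower (-1.28 ± 0.13, adjusted p = 2.06e-09).

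Of 10 D cyclins and CDK inhibitors, the genes that set entry into the cycle, 9 were tested, with 1 higher, 5 lower and 3 not passing, and a median of -0.69, or 66.7% called beside 57.5% of all genes. Ccnd2, cyclin D2, which partners Cdk4 and Cdk6, was at 369, 537 and 768 CPM in A-negative and 1003, 1175 and 1312 in A-positive libraries, and at 303, 327, 282 and 423 in B-negative and 1136, 1492 and 1650 in B-positive libraries. Its groups were apart in both batches (1.48 ± 0.15, adjusted p = 2.26e-09). Cdkn1a, the inhibitor p21, was at 205, 295 and 332 CPM in A-negative and 72.0, 82.9 and 91.5 in A-positive libraries, and at 343, 352, 350 and 476 in B-negative and 112, 130 and 147 in B-positive libraries. It was apart in the other direction (-1.76 ± 0.090, adjusted p = 3.69e-15). Cdkn2b, an inhibitor of Cdk4 and Cdk6, was lower at low counts (-2.43 ± 0.65, adjusted p = 0.00227).

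Several genes share exon bases with a neighbour on the other strand, and no strand setting is given for the counting, so their reads may be mixed. Gins2 shares 67.3% of its exon bases with Gse1, Fen1 78.8% with Gm10143, Kif20a 29.3% with Cdc23, Ube2c 22.8% with Tnnc2, Ccne2 17.4% with Ints8, Rfc4 12.7% with Eif4a2, Ccna2 12.5% with Exosc9 and Prc1 11.1% with Rccd1. Of these neighbours Cdc23 (mean counts 492 against 253), Ints8 (200 against 139) and Eif4a2 (1371 against 243) exceeded their gene. Gse1, Gm10143, Tnnc2, Exosc9 and Rccd1 did not. With smaller shares, Ufd1 exceeded Cdc45 (425 against 169), Tmem258 Fen1 (890 against 286) and Cops6 Mcm7 (940 against 741). The pseudogene Pcna-ps2 had a mean of 69.5 counts a library against 1036 for Pcna, and Ccnb2-ps 12.8 against 457 for Ccnb2. Direction also went with transcript length, taken as the median over a gene's annotated protein-coding transcripts. Of the 25 shorter of the 50 genes 19 were higher, and of the 25 longer 13 were higher and all 4 lower genes were among them. The share higher differed in the mitotic list (10 of 12 shorter, 5 of 14 longer) and little in the replication list (9 of 13 and 8 of 11). Across all tested genes with a length, split at the same 2548 bases, 2725 of 8205 shorter genes were higher and 2136 lower, and 1253 of 6072 longer genes were higher and 2171 lower. Spearman's rho of length with log2 fold change was -0.23 across the 50 genes and -0.13 across 14277 genes, which are not independent. The part of length in these differences was not tested.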

How the data were processed

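Smart-seq2 libraries of FACS-sorted cells were sequenced, 23 in all, and the authors deposited 1 table of estimated counts per gene for 54347 genes. FastQC, Trimmomatic, Salmon and mm10 are named in the submitters' processing notes. The annotation and the strand setting are not given in the sources used here. The deposited expected counts are hardly ever whole (0.000436% of nonzero values) and each column total lies within 0.111 of a whole number. They were rounded to whole numbers before testing. Identifiers were matched to GENCODE M21 symbols (54094, or 99.5%).

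Differences were tested with edgeR 4.0.16 (quasi-likelihood F test, R 4.3.3) on all genes passing filterByExpr (minimum count 10), with TMM scaling and Benjamini-Hochberg adjustment over all genes tested, and called at an adjusted p under 0.05. The fit over both batches had batch as a covariate. Each batch was also fitted alone, and a model of the 4 group means gave the interaction and the batch differences within each pool. SE is the absolute log2 fold change divided by the square root of F. A floor of 3 counts equals 0.314 to 1.3 CPM. Within a group, library pairs differed by a chi-square per degree of freedom of at least 5.46, more than sampling noise. Libraries 1 and 2 of each batch B pool stood apart. The scripts were tested on simulated data.

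The 50 genes and the lists were chosen with earlier results of these data known. Values per library are given for Mki67, Top2a, Pcna and Mcm2, for the 3 highest and 3 lowest fold changes of each list and for up to 5 called interactions with the smallest p. In the other lists the 2 highest and 2 lowest called genes are named. A gene that this rule picks is not reported here. Alternatives were RLE size factors, total-count scaling, no filter, DESeq2 1.42.0, a replicate block and leaving out each library. Omission of B-positive libraries 5 and 7, the shallowest, and of libraries 1 and 2 of both batch B pools was added after the data were seen. The ATAC-seq named in the design was not analysed here.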

Additional observations from a re-analysis of the deposited data

Results flagged for a closer look

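Of 208 sets of library values (50 genes and the 2 list sums in the 4 groups), 9 had a library standing apart from its group by Dixon's criterion, and chance gives about 1 in 20. B-negative library 4 held Mcm4 at 45.8 CPM (nearest 91.2), Mcm6 at 60.8 (nearest 84.6) and Cdc20 at 94.1 (nearest 51.6). Nusap1 was at 38.8 CPM in B-negative library 1, where the nearest was 27.45. In batch A, Rfc4 was at 41.9 CPM in A-positive library 6 (nearest 71.2), Kif11 at 79.9 in A-positive library 4 (nearest 53.0), Cenpa at 224 in A-negative library 2 (nearest 128), and Prc1 at 75.7 in A-negative library 5 (nearest 53.7). Prc1 was at 50.1 CPM in B-positive library 7 (nearest 67.3), which is a shallow library.

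The difference between the pools itself differed between batches for 8 genes by the interaction test (edgeR, log2 scale). The values were -1.18 for Uhrf1, -0.99 for Mcm6, -1.31 for Rfc4, -1.06 for Mcm7, -1.02 for Ccna2, -0.78 for Pcna, -0.82 for Mcm5 and -1.24 for Fen1, with adjusted p from 0.000912 to 0.0393. Without libraries 1 and 2 of both batch B pools, Uhrf1 and Rfc4 passed and the other 6 did not. The batches are separate days with different mice, which cannot be told apart. Rfc4 includes the low A-positive library 6, and Mcm6 the low B-negative library 4.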

How the results depend on the processing

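No fold change of the 50 genes that passed its test changed sign under any alternative run. Counts of calls moved by over 1.5 times as follows. With total-count scaling, 1 mitotic gene was lower over both batches in place of 2, 1 replication gene lower in batch A in place of 2, 4 mitotic genes lower in B-positive against A-positive in place of 2, and 0 replication genes higher in B-negative against A-negative in place of 2. With no filter on low counts, these were 1 mitotic gene lower over both batches, 1 replication and 1 mitotic gene lower in batch A, 0 mitotic genes higher in B-positive, and 1 replication gene higher in B-negative. DESeq2 called 2 mitotic genes lower in batch B in place of 1 and 1 mitotic interaction positive in place of 0. Without B-positive libraries 5 and 7, 1 replication gene was lower in B-negative in place of 2. Without libraries 1 and 2 of both batch B pools, 4 mitotic genes were lower over both batches and 2 in batch B, 2 replication interactions and 0 mitotic interactions were negative, 0 mitotic genes were higher and 1 lower in B-positive, and 0 replication genes were higher, 0 lower and 2 mitotic genes lower in B-negative. This fit has fewer libraries. In the other fits the cause was not tested. Single calls were also lost for Pola1 in batch A with total-count scaling (adjusted p = 0.061) and no filter (0.0851), with no filter for Aurkb in batch A (0.059), the interaction of Mcm5 (0.0622), Ccne1 (0.0746) and Cenpe (0.106) in B-positive, and Rfc4 (0.0886) and Birc5 (0.0817) in B-negative, and with total-count scaling for the interaction of Fen1 (0.0545). Total-count scaling moved the median of all genes over both batches from -0.12 to 0.00, and omission of the filter moved it to -0.53.

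Leaving out 1 library at a time gave 1 to 2 replication and 1 to 3 mitotic genes lower in batch A, 0 to 2 mitotic genes lower in batch B, 2 to 3 mitotic genes lower over both batches, 5 to 10 replication interactions negative, and 0 to 1 mitotic interactions positive. In Sox2-positive cells 1 to 3 mitotic genes were lower in batch B, and in Sox2-negative cells 0 to 4 replication genes were higher, 1 to 2 replication genes lower, 0 to 2 mitotic genes higher and 3 to 5 lower. Over both batches 16 to 18 replication and 14 to 16 mitotic genes were higher.

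Same-numbered libraries of a batch did not deviate together (correlations -0.04 to 0.07), and 1 of 6 numbers in batch A and 1 of 4 in batch B matched its own number best, so the numbers were not taken as pairs. With the replicate block, 1 replication and 1 mitotic gene were lower in batch A and 4 replication interactions were negative in place of 7, where Pcna (adjusted p = 0.0728), Rfc4 (0.0633) and Mcm5 (0.104) no longer passed. Also lost were, over both batches, Mcm4 (0.103), E2f1 (0.118) and Ccna2 (0.0943), in batch A Pola1 (0.108), Top2a (0.0642) and Aurkb (0.0815), and in batch B Mcm2 (0.0949), Chaf1b (0.12), Ccnb2 (0.068), Bub1b (0.119), Plk1 (0.12) and Mad2l1 (0.158). Depth limits the lowest values: the smallest count of any of the 50 genes was 7, for Cdc6.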
